A study of Mus musculus with 10 samples.

Results

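Solute carriers are membrane proteins that move nutrients, ions, vitamins and metabolites across the cell surface and across the membranes of lysosomes, mitochondria and the secretory pathway. The 200 genes described here, of 19178 in the count table, have a mouse symbol that starts with Slc and a digit and a mean raw count of at least 100 over the 10 libraries. The table holds 250 such genes at any count, and 1 further gene with the same prefix was set aside by the rule. Members were chosen by their mean count over both genotypes, so the level of a member carries no support for anything below, and the prefix was proposed with earlier results of these data known. All 200 passed the filter on low counts and were tested. The mean over both genotypes let in 6 genes that reach 100 counts in 1 genotype only, among them Slc52a3, which was higher in Ptbp1-deficient cells, Slc1a3, Slc6a20a and Slc7a2, which were higher in wild type (WT), and Slc26a6. Just inside the threshold stood Slc26a6 with a mean of 102.8 counts and Slc16a8 with 116.9. Just outside it stood Slc5a5 with 96.3, Slc5a2 with 95.8 and Slc23a4 with 94.7. Of the 200, 6 carry the prefix without being transporters, such as the scaffold gene Slc9a3r1 and the antisense gene Slc36a3os.

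Dendritic cells take up antigen, digest it in acid endolysosomes, travel to lymph nodes and activate T cells, and solute carriers serve each of these steps. Amino acid carriers of the Slc7, Slc38 and Slc1 families feed the mTORC1 growth pathway, glucose carriers of the Slc2 family feed glycolysis, and Slc25 carriers connect the cytosol with the mitochondrial matrix. Peptide and histidine carriers of the Slc15 family sit in endolysosomes, where they take part in signalling by Toll-like receptors, and Slc11a1 pumps metals out of the phagosome.

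Poly(A) RNA was sequenced as paired 150 bp reads from dendritic cells of 5 Ptbp1-deficient and 5 WT samples, with an age of 8-10 weeks given for every one. The product of Ptbp1 binds pyrimidine-rich RNA and regulates splicing. The labels give no tissue of origin, sex, allele, promoter or Cre driver for either group. Nothing says that different mice supplied the libraries of a group, so the p-values measure only how these libraries vary. Levels are TMM-normalized CPM, which relate a gene's counts to its library's total, given as mean ± SD with n = 5 libraries per genotype. Fold changes are Ptbp1-deficient over WT on the log2 scale, with the adjusted p of edgeR's quasi-likelihood test over all 18248 genes tested, and a gene is said to have risen or fallen where that p is under 0.05.

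Each Ptbp1-deficient library held 61759378 to 92697815 gene counts, and each WT library 50516163 to 66153758. Ptbp1 itself stood at 73.2 to 75.7 CPM in the deficient libraries and at 259 to 312 CPM in WT, without overlap. For the counts of markers that follow, 21.9% of all genes tested rose and 23.1% fell. Of 20 dendritic cell markers, 6 rose and 7 fell, and their summed level was 42616 to 46546 CPM in the deficient libraries and 35840 to 43940 CPM in WT. Of 21 macrophage markers measured, 14 fell and 0 rose. Their sum was 1321 to 2047 CPM in the deficient libraries, lowest in libraries 1 and 2, and 2762 to 6078 CPM in WT, highest in libraries 1 and 5. Of 15 B cell markers 11 fell, of 6 plasma cell markers 3 fell and of 12 NK cell markers 7 rose and 1 fell. The summed level of the B cell markers was 742 to 795 CPM in the deficient libraries. That lay above WT libraries 2, 3 and 4, at 653, 676 and 726 CPM, and below WT libraries 1 and 5. WT library 5 had the highest summed level of B cell markers, 2271 CPM where the other 9 libraries had 653 to 997 CPM, and of the 12 neutrophil and monocyte markers, 1006 CPM where the others had 131 to 264 CPM. Of the latter 2 fell, of 11 T cell markers 1 rose and 1 fell, and of 9 erythroid markers 1 fell. All 15 proliferation genes rose. All markers of these lists that are in the count table passed the filter on low counts. In bulk RNA, fewer cells of a type and less RNA per cell cannot be told apart, and the part of these cell types in the results below was not tested except where a fit without the libraries named is given.

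Solute carriers were changed in both directions, with most of the large changes downward. Of the 200 members, 51 rose and 67 fell, or 25.5% and 33.5%. Among all genes tested 21.9% rose and 23.1% fell, and among the 12853 with a mean raw count of at least 100, 27.9% rose and 26.1% fell. The median log2 fold change of the members was -0.045, against -0.026 over all genes tested. By over 2-fold, 5 members rose (2.5%) and 18 fell (9%), beside 3.02% and 4.31% of genes with at least 100 counts. They include Slc52a3 among the rises and Slc1a3, Slc6a20a and Slc7a2 among the falls, which reach 100 counts only in the genotype where they are higher. The 5 libraries of a genotype did not overlap the other 5 for 50.5% of the members, 40 higher and 61 lower in Ptbp1-deficient cells, beside 33.4% of all genes tested and 41.8% of those with at least 100 counts. Without WT libraries 1 and 5, 48 members rose and 66 fell, 3 of the rises and 13 of the falls by over 2-fold. A fit that added the mean log2 level of the macrophage markers as a term, called the macrophage term below, gave 41 rises and 55 falls. Of these, 7 rises and 14 falls were by over 2-fold. That score differs between the genotypes itself, so the fit may take away part of a genotype difference.

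Counts by substrate class ranged from classes in which most members fell to classes in which more rose than fell. For these counts and the family counts below, 27.9% of genes with at least 100 counts rose and 26.1% fell. Amino acid carriers fell in 16 of 32 cases and rose in 7, and sugar carriers fell in 7 of 11 and rose in 2. Carriers of inorganic ions fell in 8 of 17 and rose in 4, acid-base carriers fell in 5 of 13 and rose in 2, and nucleoside carriers fell in 3 of 6 and rose in 1. Mitochondrial carriers rose in 17 of 37 cases and fell in 9, and carriers of nucleotide sugars rose in 4 of 13 and fell in 1. Metal carriers were called in 9 of 23 cases, 3 higher and 6 lower. Of 8 carriers of organic ions and amines 3 rose and 2 fell, of 10 carriers of vitamins and cofactors 2 rose and 2 fell, and of 16 orphans 4 rose and 3 fell. Of 4 carriers of carboxylates 1 fell and of 4 of lipids and bile acids 2 fell, with 0 rising in either class. The class median was -0.29 for inorganic ions, -0.24 for amino acids and 0.084 for mitochondrial carriers. With the FPKM values the counts were 7 higher and 8 lower of 24 amino acid carriers, 0 higher and 3 lower of 9 sugar carriers, 3 higher and 7 lower of 15 carriers of inorganic ions and 8 higher and 7 lower of 34 mitochondrial carriers. Among all genes with FPKM values, 20.3% were higher and 27.2% lower. No test compared the classes with each other.

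**Figure D1:**
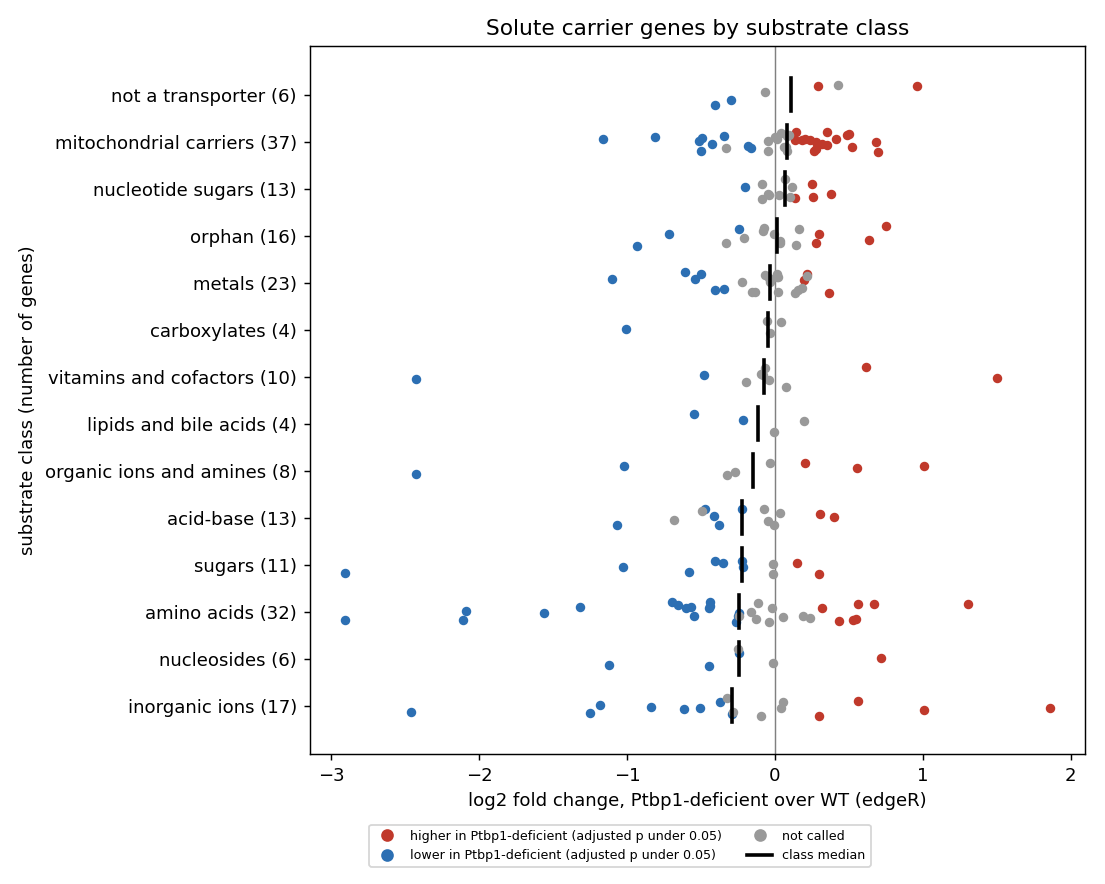
Each point is 1 of the 200 genes, placed by its log2 fold change (Ptbp1-deficient over WT, edgeR) in its substrate class, with points shifted vertically for legibility and a black bar at the class median. Mitochondrial carriers have 17 red points and 9 blue ones, while amino acid carriers have 7 red and 16 blue, with 5 blue points beyond a log2 fold change of -1.

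Amino acid carriers of the cell surface moved apart within single families. Among the Slc7 family 3 members rose and 3 fell. Slc7a5, the light chain of the LAT1 exchanger for leucine and other large neutral amino acids, stood at 58.5, 59.5, 44.5, 42.1 and 43.1 CPM in Ptbp1-deficient libraries 1 to 5 and 26.5, 36.2, 36.3, 38.1 and 32.4 CPM in WT libraries 1 to 5. Every deficient library lay above every WT library, with libraries 1 and 2 the highest (log2 fold change of 0.55, SE 0.12, adjusted p = 0.0037). With the macrophage term its change was 0.18 (adjusted p = 0.18), and without deficient libraries 1 and 2 it was 0.35. Slc3a2, the heavy chain that carries LAT1 to the surface, was at 175 ± 14.9 CPM against 148 ± 29.9 CPM (log2 fold change of 0.24, SE 0.12, adjusted p = 0.12). WT library 5 was its highest, and without WT library 5 it was called higher, with a log2 fold change of 0.36 and an adjusted p of 0.0016. Slc7a8, the LAT2 light chain, rose to 26.1 ± 7.32 CPM against 16.4 ± 3.2003 CPM (log2 fold change of 0.67, SE 0.19, adjusted p = 0.014), and here deficient libraries 1 and 2 were within the WT range at 18.46 and 17.97 CPM while libraries 3 to 5 stood at 29.96 to 33.3 CPM. With the macrophage term its change was 1.28.

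Of the carriers of basic amino acids and cystine in the same family, 1 rose and 3 fell. Slc7a1, the arginine and lysine carrier CAT1, rose from 43.4 to 58.6 CPM (log2 fold change of 0.43, SE 0.075, adjusted p = 6.8e-04), and by 0.24 with the macrophage term. Slc7a2, the inducible CAT2 carrier of the same substrates, stood at 0.132, 0.0939, 0.505, 0.631 and 0.924 CPM in Ptbp1-deficient libraries 1 to 5 and 3.51, 1.899, 2.19, 2.32 and 7.73 CPM in WT libraries 1 to 5. All deficient libraries were under 1 CPM and WT library 5 stood far above the rest (log2 fold change of -2.91, SE 0.58, adjusted p = 0.0017). Without WT libraries 1 and 5 its log2 fold change was -2.17, and with the macrophage term -1.13. Slc7a11, which imports cystine for glutathione synthesis, fell from 12.4 to 9.13 CPM (log2 fold change of -0.44, SE 0.091, adjusted p = 0.0022), with an adjusted p of 0.051 with the macrophage term. Slc7a7, the y+LAT1 exchanger, fell from 43.1 to 36.4 CPM (log2 fold change of -0.24, SE 0.076, adjusted p = 0.022). It was not called without WT library 1 (adjusted p = 0.057), without deficient library 5 (adjusted p = 0.058) or with the replicate number as a block (adjusted p = 0.052). It was also lost without either pair of libraries (0.11 and 0.071), with the macrophage term (-0.13, adjusted p = 0.35) and in FPKM (limma, adjusted p = 0.066). Slc7a6, its paralog, was at 28.6 ± 1.34 CPM against 31.9 ± 2.86 CPM (log2 fold change of -0.16, SE 0.064, adjusted p = 0.0596). It was called lower without WT library 1, with a log2 fold change of -0.20 and an adjusted p of 0.013, and without deficient library 2 (adjusted p = 0.045).

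Glutamine carriers of the Slc38 family fell in 3 of 6 cases and rose in 0. Slc38a2, the sodium-coupled SNAT2 carrier induced on amino acid shortage, was at 323, 340.04, 265, 246 and 284 CPM in Ptbp1-deficient libraries 1 to 5 and 427, 425, 448, 449.8 and 458 CPM in WT libraries 1 to 5. The WT libraries were tight and all above the deficient ones (log2 fold change of -0.60, SE 0.080, adjusted p = 1.0e-04). Slc38a1, its neighbour on chromosome 15, overlapped between genotypes at 282 ± 34.8 CPM against 309 ± 12.7 CPM (log2 fold change of -0.13, SE 0.075, adjusted p = 0.19). Without deficient library 2 it was called lower (adjusted p = 0.047), and without deficient libraries 1 and 2, its 2 highest deficient values, it was called lower at -0.26 (adjusted p = 0.00202). Slc38a7, a lysosomal glutamine exporter, fell to 18.1 ± 1.07 CPM against 21.7 ± 1.45 CPM (log2 fold change of -0.26, SE 0.063, adjusted p = 0.0049). This call was lost with the macrophage term (-0.17, adjusted p = 0.12). Slc38a9, the lysosomal arginine sensor of mTORC1, was at 82.4 ± 4.71 CPM against 83.4 ± 10.4 CPM (adjusted p = 0.88). Slc1a5, the ASCT2 glutamine exchanger, was at 166 ± 29.5 CPM against 196 ± 31.5 CPM (log2 fold change of -0.24, SE 0.14, adjusted p = 0.17), with overlap. It was called lower without WT library 1 (log2 fold change -0.33, adjusted p = 0.044) and without deficient libraries 1 and 2 (-0.41, adjusted p = 0.0398). Slc1a4, the ASCT1 paralog, rose from 1.905 to 2.81 CPM (log2 fold change of 0.56, SE 0.19, adjusted p = 0.034). The call was lost without any of deficient libraries 1, 2 and 5 and WT libraries 1 and 4 taken singly (adjusted p = 0.060 to 0.084) and with the macrophage term (0.21, adjusted p = 0.54).

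The steepest falls among amino acid and peptide carriers were in Slc7a2, Slc15a2, Slc1a3, Slc16a10 and Slc6a20a. Slc15a2, the PEPT2 carrier of di- and tripeptides, stood at 8.01, 7.66, 4.19, 5.14 and 1.88 CPM in Ptbp1-deficient libraries 1 to 5 and 15.9, 25.6, 17.7, 19.9 and 36.4 CPM in WT libraries 1 to 5. The highest deficient library was at 8.01 CPM, below the lowest WT library (log2 fold change of -2.11, SE 0.35, adjusted p = 5.2e-04), and the change was -1.99 without WT libraries 1 and 5. Slc1a3, the glutamate carrier GLAST of glia and macrophages, stood at 0.395, 0.141, 1.41, 1.87 and 1.51 CPM in Ptbp1-deficient libraries 1 to 5 and 5.95, 3.26, 2.503, 2.64 and 8.63 CPM in WT libraries 1 to 5. Like the macrophage markers, it was lowest in deficient libraries 1 and 2 and highest in WT libraries 5 and 1 (log2 fold change of -2.09, SE 0.58, adjusted p = 0.011). Without WT libraries 1 and 5 it was no longer called (-1.36, adjusted p = 0.057), nor with the macrophage term (-0.32, adjusted p = 0.36). Slc16a10, the aromatic amino acid carrier TAT1, stood at 4.83, 4.07, 8.299, 7.13 and 6.81 CPM in Ptbp1-deficient libraries 1 to 5 and 21.01, 10.99, 11.1, 14.3 and 34.8 CPM in WT libraries 1 to 5. It had the same 2 libraries at each end (log2 fold change of -1.56, SE 0.32, adjusted p = 0.0021), and its change was -0.96 without WT libraries 1 and 5 and -0.52 with the macrophage term (adjusted p = 0.101). Slc6a20a, an imino acid carrier with a close copy Slc6a20b, was at 1.26 ± 0.396 CPM against 3.16 ± 0.291 CPM (log2 fold change of -1.32, SE 0.20, adjusted p = 2.6e-04).

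**Figure D2:**
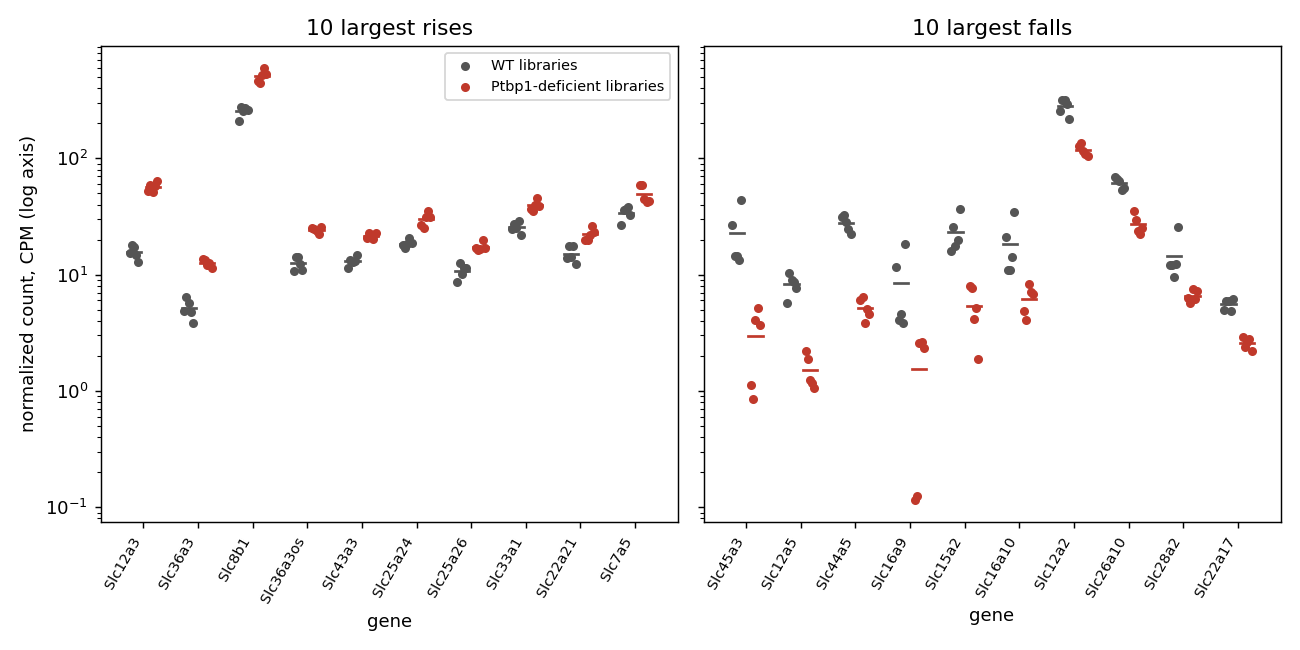
Normalized counts (CPM, log axis) of the 10 largest rises and 10 largest falls among members with at least 5 CPM in the higher genotype and no overlap, 1 point per library with a line at the mean of 5. Slc12a3 and Slc8b1 stand clear of their WT libraries, and Slc45a3 and Slc16a9 show deficient libraries 1 and 2 far below libraries 3 to 5.

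Carriers of taurine, betaine and creatine of the Slc6 family are placed at the surface of many cells. Slc6a6, the taurine carrier, had the highest level per length of the class, 80.6 FPKM over the 10 libraries, and was at 393 ± 15.1 CPM against 379 ± 9.59 CPM (log2 fold change of 0.052, SE 0.040, adjusted p = 0.32). Slc6a12 and Slc6a13, carriers of betaine and GABA that lie next to each other on chromosome 6 with 5342 bp between them, went opposite ways. Slc6a12 stood at 32.8, 32.6, 22.7, 25.9 and 25.3 CPM in Ptbp1-deficient libraries 1 to 5 and 36.1, 38.8, 38.3, 38.1 and 37.4 CPM in WT libraries 1 to 5. All of its deficient libraries were lower (log2 fold change of -0.44, SE 0.095, adjusted p = 0.0027), with a change of -0.70 with the macrophage term. Slc6a13 stood at 35.1, 32.8, 27.3, 25.8 and 27.3 CPM in Ptbp1-deficient libraries 1 to 5 and 15.5, 22.9, 26.1, 20.3 and 17.6 CPM in WT libraries 1 to 5. One deficient library fell below the highest WT library (log2 fold change of 0.53, SE 0.14, adjusted p = 0.0078), and the call was lost without deficient libraries 1 and 2 (adjusted p = 0.059) and with the macrophage term (adjusted p = 0.32). Slc6a8, the creatine carrier, fell from 2.63 to 1.7998 CPM (log2 fold change of -0.54, SE 0.16, adjusted p = 0.014), with adjusted p = 0.11 with the macrophage term. Slc43a2, the LAT4 carrier of branched-chain amino acids, fell to 127 ± 8.29 CPM against 189 ± 12.1 CPM (log2 fold change of -0.57, SE 0.057, adjusted p = 1.3e-05).

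Members of the endolysosomal membrane rose in 3 and fell in 6 of 15 cases (20% and 40%). Beside them, 27.9% and 26.1% of genes with at least 100 counts did. Slc15a3, an endolysosomal carrier of histidine and bacterial muropeptides, stood at 73.7, 73.5, 71.9, 74.8 and 69.5 CPM in Ptbp1-deficient libraries 1 to 5 and 54.1, 56.3, 62.4, 54.9 and 63.5 CPM in WT libraries 1 to 5. No library of the genotypes overlapped (log2 fold change of 0.32, SE 0.052, adjusted p = 4.1e-04), although 28% of its exon length is shared with another gene. Slc15a4, its paralog and a scaffold for TASL in Toll-like receptor signalling, was at 118 ± 9.39 CPM against 128 ± 14.6 CPM (log2 fold change of -0.12, SE 0.080, adjusted p = 0.26). Slc17a5, the lysosomal exporter of sialic acid, fell from 13.99 to 8.65 CPM (log2 fold change of -0.69, SE 0.087, adjusted p = 6.2e-05). Slc46a3, a lysosomal carrier with the second highest level of all members at 184 FPKM, was at 441 ± 40.7 CPM against 522 ± 60.2 CPM (log2 fold change of -0.24, SE 0.086, adjusted p = 0.037). This call was lost without any of deficient libraries 3, 4 and 5 or WT libraries 1, 2, 3 and 4 (adjusted p = 0.052 to 0.080) and in FPKM (limma, adjusted p = 0.18). With the macrophage term its change was -0.50. Slc48a1, the heme carrier of the endolysosome, fell from 75.3 to 51.7 CPM (log2 fold change of -0.54, SE 0.14, adjusted p = 0.0096), and its change was -0.076 with the macrophage term (adjusted p = 0.54) and -0.40 without deficient libraries 1 and 2 (adjusted p = 0.071). Without WT libraries 1 and 5 the change was -0.30, and in FPKM it was -0.30 (limma, adjusted p = 0.35). Slc12a9 rose to 156 ± 5.82 CPM against 126 ± 11.4 CPM (log2 fold change of 0.30, SE 0.061, adjusted p = 0.0018) and had an adjusted p of 0.062 with the macrophage term.

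Of the Slc36 proton-coupled amino acid carriers, Slc36a3 rose and Slc36a1 fell, and Slc36a1 went opposite ways in the count and the FPKM table. Slc36a3 (ENSMUSG00000049491, GRCm38 chromosome 11, 55124815 to 55151708, minus strand) stood at 13.7, 13.4, 12.2, 12.5 and 11.3 CPM in Ptbp1-deficient libraries 1 to 5 and 4.902, 6.41, 5.73, 4.74 and 3.82 CPM in WT libraries 1 to 5. The deficient libraries were all above 11 CPM and the WT libraries all below 6.5 CPM (log2 fold change of 1.303, SE 0.13, adjusted p = 1.0e-05). Inside it, on the other strand, lies the noncoding gene Slc36a3os (chromosome 11, 55137044 to 55140193, plus strand), at 24.4 ± 1.31 CPM against 12.5 ± 1.67 CPM (log2 fold change of 0.96, SE 0.088, adjusted p = 6.9e-06). The sources used here do not state whether counting took account of strand, so reads of these 2 genes may not be told apart. Slc36a1 (ENSMUSG00000020261, chromosome 11, 55204350 to 55236330, plus strand), the lysosomal PAT1 carrier, begins 52641 bp beyond Slc36a3 and stood at 45.03, 45.3, 37.6, 37.8 and 41.5 CPM in Ptbp1-deficient libraries 1 to 5 and 59.4, 55.2, 58.2, 55.5 and 53.7 CPM in WT libraries 1 to 5. In these counts it fell without overlap (log2 fold change of -0.45, SE 0.061, adjusted p = 1.2e-04). In the deposited FPKM values it stood at 9.05, 8.73, 6.47, 6.54 and 8.92 FPKM in Ptbp1-deficient libraries 1 to 5 and 5.26, 4.09, 4.17, 4.83 and 4.45 FPKM in WT libraries 1 to 5. There it was higher by 0.68 on the log2(FPKM + 1) scale (limma, adjusted p = 3.6e-04), and the cause of the disagreement was not tested.

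Sugar carriers fell more often than they rose, and the 2 main glucose carriers of the surface moved oppositely. Slc2a3, the high-affinity glucose carrier GLUT3, stood at 135, 140.1, 118, 98.4 and 101.1 CPM in Ptbp1-deficient libraries 1 to 5 and 168, 186, 179.7, 174 and 179.7 CPM in WT libraries 1 to 5. Deficient libraries were all below WT, most of all libraries 4 and 5 (log2 fold change of -0.58, SE 0.094, adjusted p = 3.8e-04). Slc2a1, the widespread GLUT1, stood at 39.2, 37.9, 29.4, 31.8 and 28.2 CPM in Ptbp1-deficient libraries 1 to 5 and 23.4, 27.7, 25.99, 28.00000 and 30.4 CPM in WT libraries 1 to 5. Deficient libraries 1 and 2 were the highest and library 5 lay inside the WT range (log2 fold change of 0.30, SE 0.10, adjusted p = 0.031). Its call was lost without those 2 libraries (0.14, adjusted p = 0.22) and without deficient library 1 or 2 or WT library 1, 2 or 3 taken singly (adjusted p = 0.050 to 0.078). It was also lost with the replicate block (0.071), with the macrophage term (0.11, adjusted p = 0.53) and in FPKM (0.21, limma adjusted p = 0.065). Slc2a6, a lysosomal glucose carrier of myeloid cells, fell to 32.5 ± 2.296 CPM against 41.5 ± 3.34 CPM (log2 fold change of -0.35, SE 0.066, adjusted p = 0.0011). Slc5a3, which imports myo-inositol as an osmolyte, fell from 10.9 to 5.34 CPM (log2 fold change of -1.03, SE 0.13, adjusted p = 8.9e-05).

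Slc45a3, a proton-coupled sugar carrier first known as the prostate protein prostein, had the second steepest fall of all members. It stood at 1.13, 0.845, 4.04, 5.19 and 3.72 CPM in Ptbp1-deficient libraries 1 to 5 and 26.7, 14.6, 14.6, 13.2 and 43.99 CPM in WT libraries 1 to 5. It too was lowest in deficient libraries 1 and 2 and highest in WT libraries 5 and 1 (log2 fold change of -2.904, SE 0.51, adjusted p = 7.3e-04). Its change was -2.22 without WT libraries 1 and 5, -2.39 without deficient libraries 1 and 2 and -1.29 with the macrophage term, each time called (adjusted p = 0.0016, 0.0019 and 4.3e-06). Slc37a2, a sugar phosphate carrier of the endoplasmic reticulum in macrophages, fell to 27.3 ± 1.66 CPM against 36.1 ± 6.02 CPM (log2 fold change of -0.41, SE 0.099, adjusted p = 0.0058), with WT libraries 1 and 5 the highest, and was not called with the macrophage term (adjusted p = 0.17) or in FPKM (-0.27, limma adjusted p = 0.13). Without WT libraries 1 and 5 its change was -0.22. Slc37a1 rose slightly, to 52.1 ± 3.63 CPM against 46.9 ± 1.74 CPM (log2 fold change of 0.15, SE 0.051, adjusted p = 0.031), and lost its call without WT libraries 1 and 5 (adjusted p = 0.069) and without deficient libraries 1 and 2 (adjusted p = 0.198). So it did without deficient library 1 or 2 or WT library 1 or 4 taken singly (adjusted p = 0.055 to 0.077). The call was lost as well with upper-quartile normalization (0.098), the replicate block (0.071), the macrophage term (0.056, adjusted p = 0.54) and in FPKM (0.069, limma adjusted p = 0.34). Slc50a1, the SWEET sugar carrier of the mouse, fell to 35.2 ± 1.82 CPM against 41.1 ± 2.27 CPM (log2 fold change of -0.22, SE 0.051, adjusted p = 0.0037).

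Of the 4 carboxylate carriers 3 showed no call and 1 fell. Slc16a1 and Slc16a3, the lactate carriers MCT1 and MCT4, were at 3.13 ± 0.58 CPM against 3.04 ± 0.73 CPM and 17.03 ± 1.38 CPM against 17.4 ± 3.79 CPM (adjusted p = 0.87 and 0.85), and Slc16a8, the MCT3 carrier, was at 1.704 ± 0.395 CPM against 1.77 ± 0.565 CPM (adjusted p = 0.87). Slc16a7, the MCT2 carrier with the highest affinity for pyruvate, stood at 5.74, 7.48, 8.105, 7.67 and 6.86 CPM in Ptbp1-deficient libraries 1 to 5 and 15.4, 13.02, 13.1, 14.1 and 16.4 CPM in WT libraries 1 to 5. The highest deficient library was below the lowest WT library (log2 fold change of -1.01, SE 0.10, adjusted p = 1.6e-05). Emb, the chaperone embigin that brings MCT2 to the membrane, also fell, from 98.1 to 45.4 CPM (log2 fold change of -1.11, SE 0.11, adjusted p = 8.6e-06). Slc16a9, a member of the same family reported to carry carnitine, stood at 0.115, 0.125, 2.58, 2.61 and 2.35 CPM in Ptbp1-deficient libraries 1 to 5 and 11.6, 4.09, 4.58, 3.82 and 18.5 CPM in WT libraries 1 to 5. Deficient libraries 1 and 2 were near 0.1 CPM, and the fall (log2 fold change of -2.43, SE 0.77, adjusted p = 0.023) was not called without WT libraries 1 and 5 (-1.39, adjusted p = 0.13) or with the macrophage term (-0.039, adjusted p = 0.94). Of the orphan members Slc16a14 fell to 3.097 ± 0.548 CPM against 5.89 ± 1.21 CPM (log2 fold change of -0.93, SE 0.17, adjusted p = 9.5e-04) and Slc16a11 to 1.49 ± 0.249 CPM against 2.44 ± 0.847 CPM (log2 fold change of -0.71, SE 0.22, adjusted p = 0.021). The call of Slc16a11 was lost without deficient library 3 or 5 (adjusted p = 0.053 and 0.052) and with the macrophage term (adjusted p = 0.0702).

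The Slc12 cation-chloride cotransporters were called in all 7 members measured, 3 higher and 4 lower. These carriers set cell volume and intracellular chloride. Slc12a3, the thiazide-sensitive sodium-chloride cotransporter NCC known from the kidney, stood at 52.3, 58.8, 51.7, 57.7 and 64.1 CPM in Ptbp1-deficient libraries 1 to 5 and 15.3, 17.96, 17.3, 14.7 and 12.96 CPM in WT libraries 1 to 5. The lowest deficient library had 51.7 CPM and was still far above the highest WT library, a 3.63-fold rise and the largest of any member (log2 fold change of 1.86, SE 0.092, adjusted p = 1.5e-07). Slc12a2, the sodium-potassium-chloride importer NKCC1, stood at 127, 136, 115, 108 and 104 CPM in Ptbp1-deficient libraries 1 to 5 and 256, 320.5, 316, 292 and 217 CPM in WT libraries 1 to 5. It fell to 42.1% of the WT level without overlap (log2 fold change of -1.25, SE 0.11, adjusted p = 5.1e-06). Slc12a5, the neuronal potassium-chloride exporter KCC2, stood at 2.203, 1.88, 1.23, 1.18 and 1.07 CPM in Ptbp1-deficient libraries 1 to 5 and 5.74, 10.3, 9.06, 8.69 and 7.67 CPM in WT libraries 1 to 5. All deficient libraries were under 2.3 CPM (log2 fold change of -2.46, SE 0.23, adjusted p = 7.2e-06).

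Changes of under 2-fold were seen in other potassium-chloride exporters. Slc12a4 (KCC1) fell to 20.4 ± 0.948 CPM against 24.9 ± 1.33 CPM (log2 fold change of -0.29, SE 0.054, adjusted p = 0.0011). Slc12a7 (KCC4) rose to 44.2 ± 2.99 CPM against 29.9 ± 8.86 CPM (log2 fold change of 0.56, SE 0.15, adjusted p = 0.011), although WT library 5, at 44.95 CPM, lay among the deficient libraries. Its change was 0.94 with the macrophage term and was not called in FPKM (0.34, limma adjusted p = 0.067). Of the kinases that phosphorylate these cotransporters, Stk39 (SPAK) rose from 10.8 to 22.6 CPM (log2 fold change of 1.06, SE 0.17, adjusted p = 4.2e-04) and Oxsr1 (OSR1) from 67.01 to 77.4 CPM (log2 fold change of 0.21, SE 0.046, adjusted p = 0.0034). Oxsr1 had an adjusted p of 0.071 with the macrophage term and was not called in FPKM (0.050, limma adjusted p = 0.55).

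Slc8b1, the mitochondrial sodium-calcium exchanger NCLX, rose 2.01-fold in the deficient cells. It stood at 459, 441, 526, 603 and 528 CPM in Ptbp1-deficient libraries 1 to 5 and 209.8, 274, 254, 270.2 and 261 CPM in WT libraries 1 to 5. The lowest deficient library, at 441 CPM, was far above the highest WT library, at 274 CPM (log2 fold change of 1.01, SE 0.094, adjusted p = 7.7e-06), and in FPKM it was at 95.3 ± 10.5 FPKM against 50.6 ± 3.86 FPKM. Per length it was among the highest of all members, at 72.9 FPKM. Of the calcium uniporter genes on the list of transporter partners, Smdt1 (EMRE) rose to 112 ± 8.099 CPM against 82.9 ± 5.97 CPM (log2 fold change of 0.43, SE 0.062, adjusted p = 1.7e-04), while Mcu, the pore, fell to 9.24 ± 0.508 CPM against 12.1 ± 0.839 CPM (log2 fold change of -0.39, SE 0.071, adjusted p = 8.5e-04). Slc8a1, the sodium-calcium exchanger of the surface membrane, was at 69.4 ± 5.86 CPM against 66.9 ± 0.772 CPM (adjusted p = 0.46).

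Sulfate and phosphate carriers fell where they were called. Slc26a10, an anion transporter of unsettled substrate, stood at 35.1, 29.4, 23.9, 22.5 and 24.97 CPM in Ptbp1-deficient libraries 1 to 5 and 68.7, 66.5, 63.6, 53.4 and 55.4 CPM in WT libraries 1 to 5. The groups were clear of each other (log2 fold change of -1.18, SE 0.12, adjusted p = 1.4e-05). Slc26a11 and Slc26a2, both sulfate carriers, fell to 8.11 ± 0.866 CPM against 14.5 ± 3.07 CPM (log2 fold change of -0.84, SE 0.13, adjusted p = 3.7e-04) and 35.7 ± 2.57 CPM against 46.2 ± 4.98 CPM (log2 fold change of -0.37, SE 0.074, adjusted p = 0.0017). Slc26a6 was at 1.48 ± 0.098 CPM against 1.58 ± 0.388 CPM (adjusted p = 0.69), under an identifier that takes its symbol from the deposited FPKM table only, which lists the symbol under 2 identifiers. Slc20a2, the phosphate carrier PiT2, fell to 26.2 ± 2.002 CPM against 37.3 ± 2.99 CPM (log2 fold change of -0.51, SE 0.067, adjusted p = 9.0e-05). Slc20a1 (PiT1) was at 69.3 ± 4.69 CPM against 84.3 ± 23.6 CPM (adjusted p = 0.14), with WT library 5 alone at 125 CPM and the other 4 WT libraries at 68.6 to 82.2 CPM.

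Acid-base carriers move bicarbonate or protons across the surface and inner membranes. Of the Slc4 bicarbonate carriers 3 of 6 fell and 0 rose. Slc4a7, the sodium-bicarbonate cotransporter NBCn1, stood at 92.4, 96.2, 91.8, 89.2 and 93.5 CPM in Ptbp1-deficient libraries 1 to 5 and 117, 134, 126, 128 and 113 CPM in WT libraries 1 to 5. Every deficient library was below every WT library (log2 fold change of -0.41, SE 0.049, adjusted p = 4.3e-05). Slc4a2, the chloride-bicarbonate exchanger AE2, fell to 56.3 ± 1.92 CPM against 65.6 ± 2.103 CPM (log2 fold change of -0.22, SE 0.038, adjusted p = 6.8e-04) and Slc4a8 to 113 ± 18.6 CPM against 157 ± 18.5 CPM (log2 fold change of -0.47, SE 0.12, adjusted p = 0.00603). Slc4a1, the band 3 protein of red cells, was at 1.77 ± 1.08 CPM against 2.51 ± 2.78 CPM (adjusted p = 0.55), with WT library 5 alone at 7.43 CPM. Slc9a2, a sodium-proton exchanger of the surface, fell from 5.997 to 2.86 CPM (log2 fold change of -1.07, SE 0.15, adjusted p = 1.8e-04).

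Slc9a9, the exchanger NHE9 of late recycling endosomes, stood at 97.3, 92.1, 105, 104 and 105 CPM in Ptbp1-deficient libraries 1 to 5 and 67.5, 86.1, 77.7, 80.4 and 69.5 CPM in WT libraries 1 to 5. It rose without overlap (log2 fold change of 0.40, SE 0.069, adjusted p = 5.9e-04). Slc9a8 (NHE8), of the Golgi and endosomes, rose to 96.4 ± 3.11 CPM against 78.2 ± 2.84 CPM (log2 fold change of 0.30, SE 0.039, adjusted p = 7.5e-05). It was not called in FPKM (0.11, limma adjusted p = 0.505). The scaffold Slc9a3r1, which ties exchangers to the actin cortex and is not a transporter, rose to 158 ± 4.59 CPM against 129 ± 9.84 CPM (log2 fold change of 0.29, SE 0.052, adjusted p = 8.5e-04), and by 0.19 with the macrophage term. Of the other genes that only share the prefix, Slc7a6os fell to 36.2 ± 1.85 CPM against 44.5 ± 3.81 CPM (log2 fold change of -0.30, SE 0.062, adjusted p = 0.0023) and the pseudogene Slc2a4rg-ps to 8.303 ± 0.636 CPM against 10.97 ± 0.867 CPM (log2 fold change of -0.40, SE 0.081, adjusted p = 0.0017).

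Metal carriers changed mostly by less than 1.5-fold. Slc39a10, a zinc importer of the surface used by lymphocytes, stood at 22.7, 22.96, 21.3, 21.9 and 20.3 CPM in Ptbp1-deficient libraries 1 to 5 and 36.3, 34.05, 33.4, 32.6 and 30.2 CPM in WT libraries 1 to 5. The genotypes did not overlap (log2 fold change of -0.61, SE 0.057, adjusted p = 8.0e-06). Slc39a6, the zinc importer that pairs with it, was at 45.2 ± 4.34 CPM against 39.8 ± 4.27 CPM (log2 fold change of 0.18, SE 0.083, adjusted p = 0.096). Slc39a14 and Slc39a8, importers of zinc, iron and manganese, fell to 10.4 ± 1.16 CPM against 13.2 ± 0.9 CPM (log2 fold change of -0.34, SE 0.087, adjusted p = 0.0071) and 2.64 ± 0.26 CPM against 3.495 ± 0.638 CPM (log2 fold change of -0.40, SE 0.14, adjusted p = 0.032). Slc39a8 lost its call without WT library 5 (log2 fold change -0.28, adjusted p = 0.066) or without any of deficient libraries 2, 3 and 5 (adjusted p = 0.053 to 0.076), with the replicate block (0.051) and with the macrophage term (-0.17, adjusted p = 0.51). Of the zinc exporters into the secretory pathway Slc30a5 rose to 95.9 ± 6.94 CPM against 83.7 ± 1.94 CPM (log2 fold change of 0.20, SE 0.049, adjusted p = 0.0071), with a change of 0.069 with the macrophage term (adjusted p = 0.31), of 0.12 without deficient libraries 1 and 2 and of 0.093 in FPKM (limma, adjusted p = 0.36), and Slc30a7 was at 54.3 ± 2.19 CPM against 53.9 ± 4.46 CPM (adjusted p = 0.89). Slc39a7 was at 18.9 ± 2.26 CPM against 19.7 ± 2.31 CPM (adjusted p = 0.63), with 81% of its exon length shared with another gene.

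Slc11a1, the phagosomal metal pump NRAMP1, had the highest level per length of the metal carriers, 60.5 FPKM. It stood at 90.004, 83.6, 119, 138 and 109 CPM in Ptbp1-deficient libraries 1 to 5 and 124, 88.2, 81.4, 90.9 and 147 CPM in WT libraries 1 to 5. The genotypes overlapped widely (log2 fold change of 0.021, SE 0.18, adjusted p = 0.94), with WT libraries 1 and 5 above the other WT libraries and deficient libraries 1 and 2 below the other deficient ones. With the macrophage term it was called higher, at 0.60 (adjusted p = 1.0e-03). Slc11a2, the DMT1 iron carrier, was at 33.4 ± 0.829 CPM against 32.9 ± 1.903 CPM (adjusted p = 0.75). Slc31a1, the copper importer CTR1, rose to 32.4 ± 2.51 CPM against 25.1 ± 1.23 CPM (log2 fold change of 0.37, SE 0.060, adjusted p = 4.4e-04). Slc22a17, a receptor for the iron-binding protein lipocalin 2, fell from 5.57 to 2.59 CPM (log2 fold change of -1.105, SE 0.12, adjusted p = 1.9e-05), and Slc41a1, a magnesium carrier, to 35.4 ± 3.32 CPM against 49.9 ± 5.06 CPM (log2 fold change of -0.50, SE 0.080, adjusted p = 3.8e-04).

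Among the 37 mitochondrial carriers of the Slc25 family, 17 rose and 9 fell in the counts (45.9% and 24.3%). Beside them, 27.9% and 26.1% of genes with at least 100 counts did. Slc25a5 (ANT2), which exchanges ADP for ATP, had the highest level of all members, 273 FPKM, and stood at 391.7, 375, 429.8, 413 and 409.5 CPM in Ptbp1-deficient libraries 1 to 5 and 295, 316, 334, 337 and 335 CPM in WT libraries 1 to 5. It rose without overlap (log2 fold change of 0.32, SE 0.052, adjusted p = 4.0e-04). Slc25a4 (ANT1) rose to 143 ± 9.68 CPM against 112 ± 9.72 CPM (log2 fold change of 0.35, SE 0.066, adjusted p = 0.0011). Slc25a5 has processed copies in the genome, so its counts may lack reads that were not unique. Slc25a3, the phosphate carrier that works beside them, was at 338 ± 8.24 CPM against 324 ± 20.6 CPM (log2 fold change of 0.059, SE 0.048, adjusted p = 0.35) and 153 FPKM.

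Slc25a24, a calcium-regulated carrier of ATP-magnesium and phosphate, stood at 26.6, 25.1, 31.1, 35.3 and 31.6 CPM in Ptbp1-deficient libraries 1 to 5 and 17.9, 16.8, 18.2, 20.8 and 18.6 CPM in WT libraries 1 to 5. All deficient libraries were above 25 CPM and all WT libraries below 21 CPM (log2 fold change of 0.70, SE 0.093, adjusted p = 9.6e-05). Its paralog Slc25a25 rose to 59.1 ± 2.67 CPM against 49.3 ± 1.42 CPM (log2 fold change of 0.26, SE 0.041, adjusted p = 3.3e-04). In FPKM it was not called, with a difference of 0.027 (limma, adjusted p = 0.89). Slc25a26, which brings S-adenosylmethionine into the matrix, stood at 17.1, 16.2, 16.7, 19.9 and 17.04 CPM in Ptbp1-deficient libraries 1 to 5 and 8.71, 12.5, 10.1, 11.5 and 11.4 CPM in WT libraries 1 to 5. It rose without overlap (log2 fold change of 0.68, SE 0.098, adjusted p = 1.8e-04), with deficient library 4 apart from the other deficient libraries. Slc25a38, the glycine carrier of heme synthesis, rose to 63.7 ± 2.004 CPM against 47.8 ± 0.981 CPM (log2 fold change of 0.41, SE 0.036, adjusted p = 4.3e-06), the smallest adjusted p of the class. Slc25a12 and Slc25a13, the aspartate-glutamate carriers of the malate-aspartate shuttle, rose to 51.8 ± 2.18 CPM against 40.6 ± 2.81 CPM (log2 fold change of 0.35, SE 0.052, adjusted p = 2.2e-04, and in FPKM 0.38, adjusted p = 0.200 by limma) and 15.1 ± 1.74 CPM against 10.7 ± 1.703 CPM (log2 fold change of 0.50, SE 0.12, adjusted p = 0.0048). Slc25a11 and Slc25a10, the oxoglutarate and dicarboxylate carriers, were at 120.05 ± 1.83 CPM against 114 ± 7.41 CPM and 40.7 ± 3.46 CPM against 38.4 ± 3.97 CPM (adjusted p = 0.198 and 0.41). Slc25a10 was called higher with the macrophage term, at 0.26 (adjusted p = 0.033), and without WT libraries 1 and 5 (adjusted p = 0.048).

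The acylcarnitine carrier Slc25a20 of fatty acid oxidation rose from 38.1 to 53.6 CPM (log2 fold change of 0.49, SE 0.12, adjusted p = 0.0053), with an adjusted p of 0.053 with the macrophage term and a change of 0.31 without WT libraries 1 and 5. The glutamate carrier Slc25a22 rose to 51.7 ± 3.95 CPM against 42.7 ± 2.58 CPM (log2 fold change of 0.28, SE 0.060, adjusted p = 0.003, and adjusted p = 0.12 with the macrophage term), and was not called in FPKM (limma, adjusted p = 0.083). Slc25a14 rose to 5.75 ± 0.124 CPM against 4.003 ± 0.282 CPM (log2 fold change of 0.52, SE 0.082, adjusted p = 3.5e-04) and the ornithine carrier Slc25a15 to 7.06 ± 0.35 CPM against 5.82 ± 0.56 CPM (log2 fold change of 0.28, SE 0.087, adjusted p = 0.021). The call of Slc25a15 was lost without deficient library 5 (adjusted p = 0.053) and in the replicate block fit (adjusted p = 0.058), with the macrophage term (0.13), without either pair of libraries (0.054 and 0.063) and in FPKM (0.11, limma adjusted p = 0.17). The citrate carrier Slc25a1 rose to 37.4 ± 1.47 CPM against 32.9 ± 2.92 CPM (log2 fold change of 0.18, SE 0.061, adjusted p = 0.027). This call was lost without deficient library 3 or 4 or WT library 2 (adjusted p = 0.056 to 0.064) and without WT libraries 1 and 5 (adjusted p = 0.11), without deficient libraries 1 and 2 (0.056), with the macrophage term (0.25), with upper-quartile normalization (0.076) and in FPKM (0.11, limma adjusted p = 0.12).

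The 9 mitochondrial carriers that fell included coenzyme A, pyrimidine nucleotide and iron carriers. Slc25a42, which carries coenzyme A, stood at 1.71, 2.096, 2.12, 2.29 and 2.16 CPM in Ptbp1-deficient libraries 1 to 5 and 4.25, 4.65, 4.81, 4.57 and 5.002 CPM in WT libraries 1 to 5. It had the only fall beyond 2-fold in the class (log2 fold change of -1.16, SE 0.11, adjusted p = 8.1e-06). Slc25a33 and Slc25a36, both pyrimidine nucleotide carriers, fell to 2.06 ± 0.288 CPM against 3.62 ± 0.459 CPM (log2 fold change of -0.81, SE 0.14, adjusted p = 5.0e-04) and 97.7 ± 3.73 CPM against 111 ± 6.26 CPM (log2 fold change of -0.18, SE 0.046, adjusted p = 0.0065). Slc25a37, the iron carrier mitoferrin 1, stood at 71.7, 71.95, 69.7, 54.8 and 61.04 CPM in Ptbp1-deficient libraries 1 to 5 and 78.2, 87.7, 96.3, 78.3 and 124 CPM in WT libraries 1 to 5. WT library 5 was its highest (log2 fold change of -0.50, SE 0.13, adjusted p = 0.0071), and it had an adjusted p of 0.069 with the macrophage term. Slc25a28 (mitoferrin 2) was at 37.7 ± 2.59 CPM against 36.7 ± 1.63 CPM (adjusted p = 0.595). Slc25a29, a carrier of basic amino acids, fell to 3.38 ± 0.542 CPM against 4.83 ± 0.593 CPM (log2 fold change of -0.52, SE 0.14, adjusted p = 0.0087) and Slc25a40 to 14.5 ± 0.798 CPM against 19.4 ± 0.568 CPM (log2 fold change of -0.42, SE 0.055, adjusted p = 8.6e-05). Slc25a51, the NAD carrier, fell to 62.1 ± 1.82 CPM against 69.3 ± 3.77 CPM (log2 fold change of -0.16, SE 0.044, adjusted p = 0.011), a call lost with the macrophage term (-0.16, adjusted p = 0.081). In FPKM the fall was larger, -0.80 (limma, adjusted p = 9.9e-04).

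**Figure D3:**
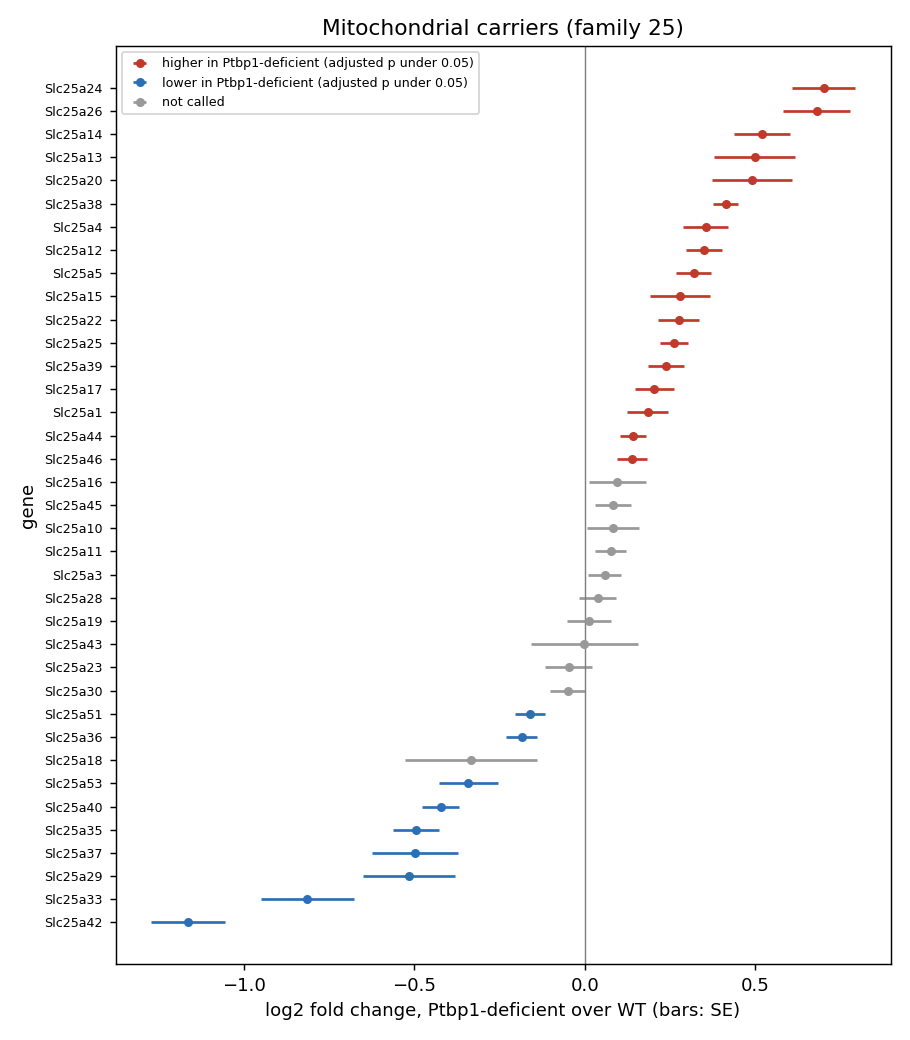
Log2 fold change (Ptbp1-deficient over WT) of each of the 37 mitochondrial carriers, with bars of 1 SE and colours for the calls. The 17 red carriers run up to Slc25a24, and Slc25a42 stands alone beyond a log2 fold change of -1.

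Without WT libraries 1 and 5, 15 mitochondrial carriers rose and 9 fell, without deficient libraries 1 and 2 the counts were 14 and 9, and with the macrophage term 12 and 7. In FPKM, where 34 of them have a row, 8 rose and 7 fell. All 15 proliferation genes moved the same way, with Mki67 at 366 ± 22.5 CPM against 182 ± 22.8 CPM (log2 fold change of 1.01, SE 0.082, adjusted p = 3.1e-06). Their summed level was 1606 to 1741 CPM in the deficient libraries and 700.2 to 984 CPM in WT, and their part in the mitochondrial result was not tested.

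Nucleoside and nucleobase carriers changed one by one. Slc43a3, a purine nucleobase carrier, stood at 20.6, 22.7, 20.9, 20.3 and 22.9 CPM in Ptbp1-deficient libraries 1 to 5 and 11.4, 13.3, 12.9, 13.01 and 14.8 CPM in WT libraries 1 to 5. It rose without overlap (log2 fold change of 0.72, SE 0.073, adjusted p = 1.5e-05). Slc29a1, the equilibrative nucleoside carrier ENT1 of the surface, fell to 59.3 ± 2.24 CPM against 70.01 ± 3.21 CPM (log2 fold change of -0.24, SE 0.043, adjusted p = 8.0e-04), and the lysosomal ENT3 gene Slc29a3 was at 84.7 ± 1.13 CPM against 85.3 ± 5.24 CPM (adjusted p = 0.87). Slc17a9, which loads ATP into vesicles, fell to 8.37 ± 0.608 CPM against 11.4 ± 1.31 CPM (log2 fold change of -0.45, SE 0.090, adjusted p = 0.0017). Slc28a2, the sodium-coupled purine nucleoside carrier CNT2, stood at 6.33, 5.74, 7.47, 6.19 and 7.29 CPM in Ptbp1-deficient libraries 1 to 5 and 12.1, 12.02, 9.499, 12.2 and 25.9 CPM in WT libraries 1 to 5. WT library 5 had over 2 times the level of any other library (log2 fold change of -1.12, SE 0.23, adjusted p = 0.0023), the change was -0.77 without WT libraries 1 and 5, and it was not called with the macrophage term (-0.54, adjusted p = 0.14). A close copy of Slc28a2 exists in the mouse genome, so its counts are uncertain.

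Nucleotide sugar carriers supply the Golgi and endoplasmic reticulum with donors for glycosylation. Slc35b1, which exchanges ATP and ADP across the endoplasmic reticulum, stood at 48.2, 50.6, 55.4, 55.5 and 56.01 CPM in Ptbp1-deficient libraries 1 to 5 and 38.9, 40.4, 43.6, 40.4 and 40.6 CPM in WT libraries 1 to 5. It rose without overlap (log2 fold change of 0.38, SE 0.052, adjusted p = 1.1e-04). Slc35c2, a Golgi carrier linked to fucosylation with the highest level of the class at 99.9 FPKM, rose to 262 ± 8.43 CPM against 220.2 ± 24.2 CPM (log2 fold change of 0.25, SE 0.069, adjusted p = 0.011), with adjusted p = 0.056 without deficient libraries 1 and 2 and 0.32 with the macrophage term, and a change of 0.15 without WT libraries 1 and 5. Slc35a5 rose to 38.4 ± 1.52 CPM against 32.01 ± 1.26 CPM (log2 fold change of 0.26, SE 0.044, adjusted p = 5.3e-04). Its difference in FPKM was 0.041 (limma, adjusted p = 0.62). The UDP-N-acetylglucosamine carrier Slc35a3 rose to 70.6 ± 1.83 CPM against 64.4 ± 1.62 CPM (log2 fold change of 0.13, SE 0.035, adjusted p = 0.0081), but in FPKM its difference was -0.064 and not called, and with the macrophage term its adjusted p was 0.059. Slc35a2, the UDP-galactose carrier, fell to 20.3 ± 0.46 CPM against 23.3 ± 0.646 CPM (log2 fold change of -0.20, SE 0.044, adjusted p = 0.0029, and in FPKM -0.17, adjusted p = 0.16 by limma), while Slc35a1, the CMP-sialic acid carrier, was at 17.8 ± 1.28 CPM against 18.9 ± 1.15 CPM (adjusted p = 0.29), and Slc35b2, which carries the sulfate donor PAPS, at 65.1 ± 4.27 CPM against 62.2 ± 5.31 CPM (adjusted p = 0.43).

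Of 3 choline carriers of the Slc44 family 2 fell, and an acetyl-coenzyme A carrier and a riboflavin carrier rose. Slc44a5, a choline-like carrier, stood at 6.08, 6.44, 3.87, 5.11 and 4.57 CPM in Ptbp1-deficient libraries 1 to 5 and 31.5, 32.8, 28.5, 24.9 and 22.5 CPM in WT libraries 1 to 5. It fell to 18.6% of the WT level, with the smallest adjusted p of any fall (log2 fold change of -2.43, SE 0.15, adjusted p = 5.2e-07). Slc44a1, the main choline carrier of plasma and mitochondrial membranes, stood at 76.8, 77.9, 69.6, 65.1 and 66.7 CPM in Ptbp1-deficient libraries 1 to 5 and 100.1, 99.9, 99.6, 97.5 and 99.9 CPM in WT libraries 1 to 5. The 5 WT libraries lay within 97.5 to 100.1 CPM, all above the deficient ones (log2 fold change of -0.48, SE 0.053, adjusted p = 2.4e-05). Slc44a2 was at 454 ± 36.2 CPM against 432 ± 24.5 CPM (log2 fold change of 0.072, SE 0.061, adjusted p = 0.36) and 106 FPKM, the highest of the class.

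Slc33a1, which takes acetyl-coenzyme A into the endoplasmic reticulum, stood at 37.02, 35.1, 39.6, 45.8 and 39.2 CPM in Ptbp1-deficient libraries 1 to 5 and 24.9, 27.3, 25.2, 28.7 and 22.1 CPM in WT libraries 1 to 5. It rose without overlap (log2 fold change of 0.62, SE 0.082, adjusted p = 1.0e-04), with 32% of its exon length shared with another gene. Slc52a3, a riboflavin carrier, rose from 1.02 to 2.87 CPM (log2 fold change of 1.499, SE 0.17, adjusted p = 3.6e-05), and Slc52a2, the more widespread one, was at 21.7 ± 1.09 CPM against 23.1 ± 1.86 CPM (adjusted p = 0.28). Of the fatty acid transport proteins Slc27a1 fell to 18.2 ± 0.378 CPM against 26.6 ± 2.88 CPM (log2 fold change of -0.55, SE 0.071, adjusted p = 7.8e-05) and Slc27a4 to 17.4 ± 1.35 CPM against 20.2 ± 1.76 CPM (log2 fold change of -0.21, SE 0.074, adjusted p = 0.035). Slc27a4 lost its call without any of deficient libraries 2, 3 and 4 or WT libraries 2 and 5 (adjusted p = 0.069 to 0.079), and with the macrophage term (0.196).

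Among carriers of organic ions, Slc14a1, the urea channel UT-B, stood at 13.96, 9.698, 11.4, 11.4 and 11.7 CPM in Ptbp1-deficient libraries 1 to 5 and 22.01, 27.2, 19.7, 32.2 and 17.1 CPM in WT libraries 1 to 5. It fell without overlap (log2 fold change of -1.02, SE 0.16, adjusted p = 3.2e-04). Slc22a21, the mouse carnitine carrier OCTN3, stood at 19.7, 19.9, 21.9, 26.02 and 23.2 CPM in Ptbp1-deficient libraries 1 to 5 and 13.9, 17.5, 14.3, 17.5 and 12.2 CPM in WT libraries 1 to 5. It rose (log2 fold change of 0.55, SE 0.11, adjusted p = 0.0018), whereas its neighbour Slc22a5 (OCTN2), 58304 bp away, was at 35.6 ± 0.76 CPM against 36.4 ± 2.74 CPM (adjusted p = 0.66). Of the orphan carriers Slc35g1 and Slc22a18 rose to 3.41 ± 0.281 CPM against 2.02 ± 0.385 CPM (log2 fold change of 0.75, SE 0.15, adjusted p = 0.0015) and 4.94 ± 0.546 CPM against 3.18 ± 0.28 CPM (log2 fold change of 0.64, SE 0.11, adjusted p = 6.6e-04).

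Pairs of carriers for the same substrate were then compared by the log2 ratio of their counts within each library, which needs no scaling between libraries. Of 20 such pairs, 11 differed without overlap between genotypes (exact two-sided permutation test, p = 0.0079, the smallest that 5 against 5 libraries can give, and 0.014 after Benjamini-Hochberg adjustment over the 20). How often the ratio of other gene pairs separates the genotypes was not measured. Of single genes with at least 100 counts, 41.8% did not overlap. A ratio shows unequal change, not which gene changed. Slc2a1 over Slc2a3 was -1.79, -1.88, -1.999, -1.63 and -1.84 in deficient libraries 1 to 5 and -2.85, -2.75, -2.79, -2.63 and -2.56 in WT libraries 1 to 5. The balance lay further toward Slc2a1 in every deficient library, by 0.89. Slc1a4 over Slc1a5 was higher by 0.81, Slc25a28 over Slc25a37 by 0.52, Slc38a1 over Slc38a2 by 0.47 and Slc15a3 over Slc15a4 by 0.43. Ratios that were lower in deficient cells included those of Slc39a10 over Slc39a6 (-0.79), Slc44a1 over Slc44a2 (-0.55), Slc29a1 over Slc29a3 (-0.23) and Slc4a7 over Slc4a2 (-0.19). In FPKM the ratio of Slc29a1 over Slc29a3 differed by -0.28 (exact permutation p = 0.079).

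The other 9 pairs overlapped. Slc25a4 over Slc25a5 was -1.496 ± 0.027 against -1.53 ± 0.14, a difference of 0.036 (exact permutation p = 0.95), although both genes rose. Slc7a5 over Slc7a8 was 1.66, 1.73, 0.57, 0.34 and 0.48 in deficient libraries 1 to 5 and 0.41, 1.43, 1.38, 1.35 and 0.71 in WT libraries 1 to 5. Within both genotypes the libraries split, with deficient libraries 1 and 2 and WT libraries 2 to 4 high, and the difference between genotypes was -0.10 (exact permutation p = 0.88). Slc20a1 over Slc20a2 differed by 0.26 (exact permutation p = 0.15), and by 0.41 without WT library 5, where it passed 0.05.

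**Figure D4:**
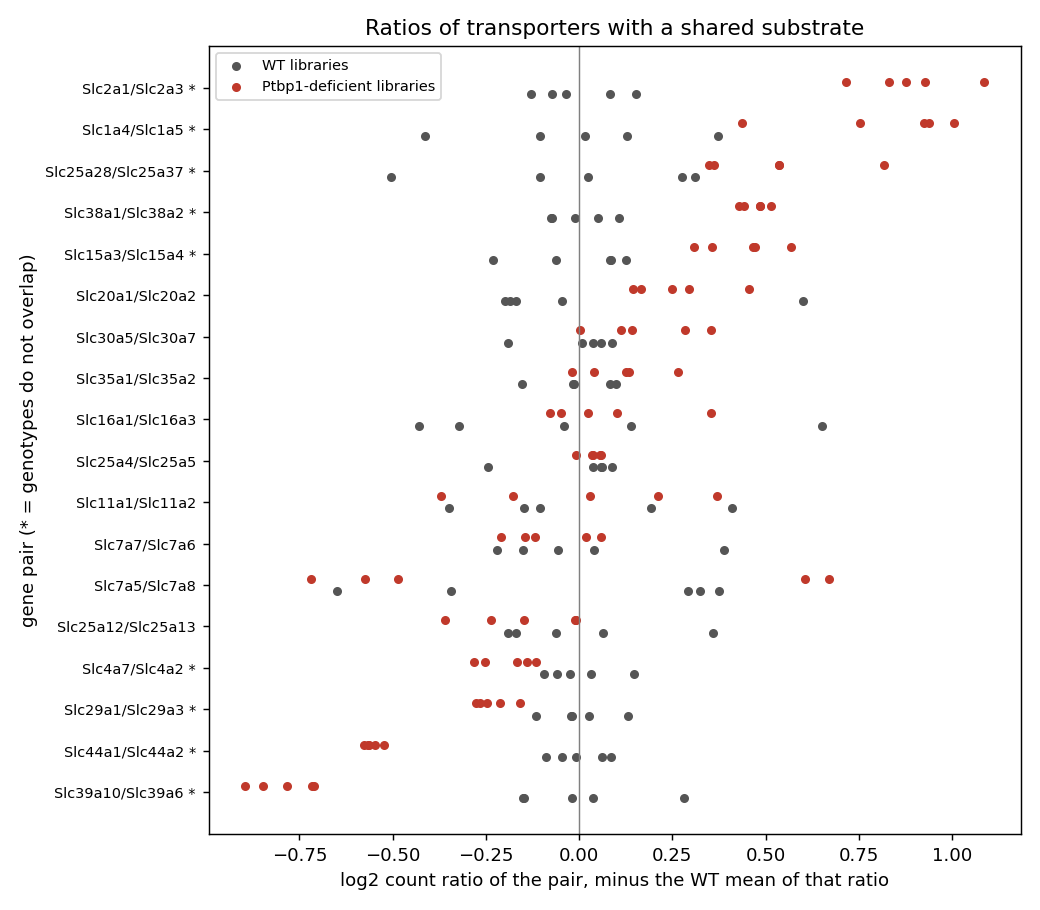
Log2 count ratio of 18 of the 20 pairs in each library, less the WT mean of that ratio, with grey points for the 5 WT and red points for the 5 Ptbp1-deficient libraries. The 9 pairs marked with an asterisk are those whose red and grey points do not overlap, 5 to the right of 0 and 4 to the left.

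The libraries of a genotype agreed closely for most members. The median coefficient of variation was 7.63% in the deficient group and 9.14% in WT. It exceeded 40% in WT for 8 members, named for that spread: Slc4a1, Slc16a9, Slc7a2, Slc45a3, Slc1a3, Slc16a10, Slc41a2 and Slc28a2, and WT library 5 was the highest WT library for all 8. Of these, 6 fell, the exceptions being Slc4a1 and Slc41a2. Among the 18 members that fell by over 2-fold, WT library 5 was the highest in 11 and WT library 1 in 3, and deficient libraries 1 and 2 were the 2 lowest in 6. The receptor gene Csf1r was at 149 ± 41.04 CPM against 489.6 ± 206 CPM (log2 fold change of -1.72, SE 0.27, adjusted p = 3.5e-04). It was still called lower without WT libraries 1 and 5 (-1.23). With the macrophage term its change was -0.81 (adjusted p = 6.4e-04). Csf1r is itself a marker of macrophages, so that fit cannot separate its change from the macrophage score.

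The FPKM table gave a second reading for 164 of the 200 members. The sign agreed for 148. Among its genes 20.3% were higher and 27.2% lower (limma on log2(FPKM + 1), adjusted p under 0.05), and 31 members were higher and 45 lower. Of the members, 69 were called in both tables in the same direction, 25 in counts only, 6 in FPKM only, and 1, Slc36a1, in opposite directions. The steep falls are thinly covered there, since 5 of the 18 members that fell by over 2-fold have a row, as do 3 of the 5 that rose by over 2-fold.

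**Figure D5:**
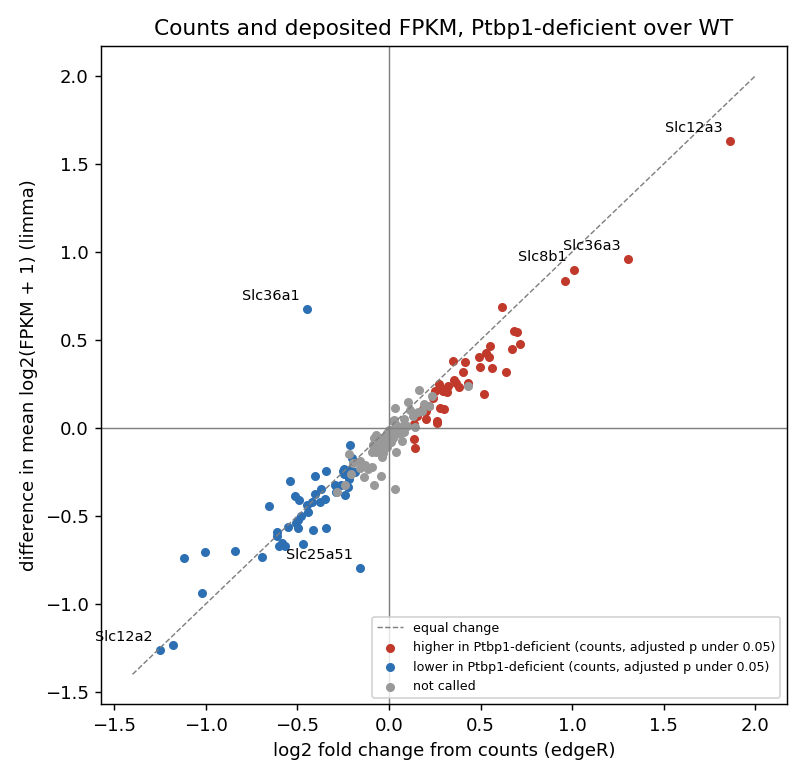
Change of the 164 members with an FPKM row, from counts (x axis, edgeR log2 fold change) and from deposited FPKM (y axis, difference in mean log2(FPKM + 1)), with a dashed line of equal change and colours for the calls in counts. Most points follow the line, Slc36a1 lies on the other side of 0 at -0.45 and 0.68, and Slc25a51 falls more in FPKM.

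Promoter windows from RefSeq (GRCm38.p6, 250 bases before to 50 after the start) were matched by symbol for 155 members and searched on both strands for 2 motifs that do not overlap each other: TGATGNAA, the core of the amino acid response element read by ATF4, and CACGTG, an E-box read by MYC, USF and the lysosomal factor TFEB. TGATGNAA was in the windows of 6 members (3.87%) and of 4.51% of all 27025 genes in the table. These were Slc1a4 and Slc9a9, which rose, and Slc7a11, Slc7a7, Slc26a10 and Slc50a1, which fell. CACGTG was in the windows of 24 members (15.5%) and of 8.09% of all genes in the table. Of the 24, 10 rose and 8 fell, where 25.5% and 33.5% of all 200 members did. For both motifs the sets are unlike, since the promoter table holds genes at any level and members have at least 100 counts. The difference in shares was not tested. Shown here, cut at 20 bases after the start, are 1 riser and 1 faller in the counts with each motif, with the matched letters in capitals. Slc36a1, the faller with CACGTG, was called higher in FPKM (0.68, limma adjusted p = 3.6e-04). Slc1a4, the riser with TGATGNAA, lost its call without WT libraries 1 and 5, without deficient libraries 1 and 2 and with the macrophage term. The windows are those of Slc1a4 (chr11:20332694-20332963, minus strand), Slc7a11 (chr3:50443594-50443863, minus strand), Slc33a1 (chr3:63964714-63964983, minus strand) and Slc36a1 (chr11:55204090-55204359, plus strand).
Slc1a4: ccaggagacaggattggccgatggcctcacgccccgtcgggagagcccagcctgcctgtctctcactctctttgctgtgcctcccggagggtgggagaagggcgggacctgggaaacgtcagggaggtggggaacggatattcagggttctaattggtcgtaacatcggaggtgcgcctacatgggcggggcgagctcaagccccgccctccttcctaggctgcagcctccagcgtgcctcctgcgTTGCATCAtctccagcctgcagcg
Slc7a11: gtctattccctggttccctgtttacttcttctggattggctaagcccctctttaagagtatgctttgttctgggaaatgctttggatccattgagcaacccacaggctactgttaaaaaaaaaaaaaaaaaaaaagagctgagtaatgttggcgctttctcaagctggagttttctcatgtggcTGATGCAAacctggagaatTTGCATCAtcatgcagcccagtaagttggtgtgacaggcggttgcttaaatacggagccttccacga
Slc33a1: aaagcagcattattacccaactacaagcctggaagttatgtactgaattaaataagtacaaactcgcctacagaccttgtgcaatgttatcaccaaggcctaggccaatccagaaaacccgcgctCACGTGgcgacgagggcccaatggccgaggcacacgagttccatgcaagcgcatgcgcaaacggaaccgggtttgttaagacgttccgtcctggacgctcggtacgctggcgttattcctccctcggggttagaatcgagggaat
Slc36a1: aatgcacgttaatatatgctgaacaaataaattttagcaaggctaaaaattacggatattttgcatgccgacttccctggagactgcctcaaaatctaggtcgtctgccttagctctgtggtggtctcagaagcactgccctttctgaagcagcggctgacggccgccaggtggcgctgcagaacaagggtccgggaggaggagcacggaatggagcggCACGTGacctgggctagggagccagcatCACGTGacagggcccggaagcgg
Slc7a11 and Slc36a1 each hold 2 matches and Slc1a4 and Slc33a1 1 each. A match is a string of letters and not a site shown to be bound in these cells.

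Genes that work with the members changed in both directions as well. Of 35 genes of amino acid sensing, 6 rose (17.1%) and 11 fell (31.4%), beside 21.9% and 23.1% of all genes tested. Fnip2, a partner of folliculin at the lysosome, rose to 105 ± 21.95 CPM against 46.7 ± 2.78 CPM (log2 fold change of 1.17, SE 0.12, adjusted p = 1.4e-05), and Lamtor5, a Ragulator subunit, to 46.9 ± 3.34 CPM against 35.8 ± 0.8 CPM (log2 fold change of 0.39, SE 0.050, adjusted p = 7.8e-05). The arginine sensor subunit Castor2 fell to 24.02 ± 1.15 CPM against 48.5 ± 2.29 CPM (log2 fold change of -1.01, SE 0.048, adjusted p = 1.2e-07) and the GTPase gene Rragd from 2.81 to 1.05 CPM (log2 fold change of -1.41, SE 0.18, adjusted p = 6.4e-05). Atf4, whose product induces amino acid carriers, was at 258 ± 10.3 CPM against 280.2 ± 51.7 CPM (adjusted p = 0.41), and without WT library 1 it was called lower, at -0.21 (adjusted p = 0.011).

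Of 19 transporter partners 6 rose (31.6%) and 8 fell (42.1%), beside 21.9% and 23.1% of all genes tested. One of the 8 was Txnip, which promotes internalization of glucose carriers, at 193 ± 26.3 CPM against 374 ± 45.6 CPM (log2 fold change of -0.96, SE 0.10, adjusted p = 2.3e-05). Of 55 transporter genes outside the Slc prefix 44 were measured, and 11 rose (25%) and 13 fell (29.5%), near the shares over all genes tested. The mitochondrial serine carrier Sfxn1 rose to 59.5 ± 2.805 CPM against 36.1 ± 3.02 CPM (log2 fold change of 0.72, SE 0.060, adjusted p = 3.5e-06) and the organic anion carrier Slco3a1 to 113 ± 9.61 CPM against 65.01 ± 16.05 CPM (log2 fold change of 0.80, SE 0.15, adjusted p = 0.0012). Slco5a1 fell to 34.2 ± 2.705 CPM against 72.95 ± 13.3 CPM (log2 fold change of -1.09, SE 0.11, adjusted p = 1.4e-05), the phosphate exporter Xpr1 to 65.3 ± 2.31 CPM against 88.99 ± 6.801 CPM (log2 fold change of -0.45, SE 0.054, adjusted p = 4.8e-05) and Slco2b1 to 3.54 ± 2.69 CPM against 19.8 ± 11.8 CPM (log2 fold change of -2.47, SE 0.64, adjusted p = 0.0083). Slco2b1 was lowest in deficient libraries 1 and 2 and highest in WT libraries 1 and 5, and with the macrophage term it was not called (-0.52, adjusted p = 0.11).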

How the data were processed

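Members, classes, pairs and gene lists were chosen with earlier results of these data known. Per the submitters' processing notes, the tools were HISAT2, StringTie and DESeq2 (no versions), and the build is named as the human GRCh38, although the deposited identifiers are mouse Ensembl genes. The authors deposited a count table (whole numbers per gene and library, not normalized, 19178 genes) and an FPKM table (11978 rows). How reads were counted, and with which strand setting, was not stated in the sources used here. Symbols, exon overlaps and coordinates came from GENCODE M21 (GRCm38), and 1 member took its symbol from the FPKM table.

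Counts were filtered with filterByExpr, normalized by TMM and tested with edgeR 4.0.16 (R 4.3.3) over 18248 genes with genotype as the only term and Benjamini-Hochberg adjustment. FPKM was tested with limma 3.58.1 on log2(FPKM + 1). Ratios were taken with a prior count of 0.5 and tested by exact permutation of the libraries. At these depths, 50516163 counts per library or more, counting error is small for most members and replicate spread sets the precision. For members near 1 CPM, with down to 6 counts in a library, counting error is larger. No columns of other samples were present. The fit was tested on simulated data with known changes.

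Genes named by rule (89) were the 10 largest rises and falls with at least 5 CPM and no overlap, up to 2 called members per class and direction, the member of highest FPKM per class, the pairs and those beside the threshold. A further 64 were named after their values were seen, as were the genes shown with promoters. Results of 4 of these genes are not reported here. Alternatives were DESeq2 1.42.0 and limma-voom with quality weights in place of edgeR, RLE or upper-quartile factors in place of TMM, no count filter or one of 1 CPM in 5 libraries, a block for the replicate number, FPKM with pseudocounts of 1 and 0.1 or a floor of 5, an adjusted p under 0.01, minimum mean counts of 50 and 500, and leaving out each library. Fits chosen after seeing the data left out WT libraries 1 and 5 or deficient libraries 1 and 2, or added the mean log2 CPM of the macrophage markers as a covariate (the macrophage term).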

Additional observations from a re-analysis of the deposited data

Results flagged for a closer look

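A single library stood apart from the other 4 of its genotype, by Dixon's 95% criterion, in 15 of 306 groups screened, where chance gives about 1 in 20. WT library 5 was the highest WT library for 7 genes: Slc28a2 at 25.9 CPM (others 9.50 to 12.2), Slc20a1 at 125 CPM (68.6 to 82.2), Slc7a2 at 7.73 CPM (1.90 to 3.51), Slc4a1 at 7.43 CPM (0.874 to 1.92), Slc39a8 at 4.62 CPM (3.05 to 3.34), Slc17a9 at 13.7 CPM (10.4 to 11.3) and Stk39 at 15.2 CPM (9.26 to 10.35). WT library 1 was the highest for Slc26a2 at 54.9 CPM (42.7 to 45.5) and for Castor2 at 52.4 CPM (46.4 to 47.9). WT library 4 was the lowest for Slc44a1 at 97.5 CPM, with the others at 99.6 to 100.1 CPM, so the gap is small in size.

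In the deficient group, library 4 was the highest for Slc25a26 at 19.9 CPM (16.2 to 17.1) and the lowest for Slc25a51 at 58.9 CPM (62.6 to 63.3). Library 5 was the highest for Slc38a9 at 90.8 CPM (79.6 to 80.9) and the lowest for Slc7a7 at 33.3 CPM (36.5 to 37.8). Library 1 was the highest for Slc25a33 at 2.56 CPM (1.86 to 2.01).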

How the results depend on the processing

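Over the settings on counts, 37 to 56 members rose and 55 to 73 fell among the 200, with 53 and 69 of 215 at a minimum mean count of 50 and 44 and 53 of 158 at 500. With FPKM + 1 or + 0.1 they were 31 and 45 of 164, and with an FPKM floor of 5, 25 and 31 of 124, where fewer genes are listed. In the same 3 FPKM settings, in that order, mitochondrial carriers rose in 8, 8 and 6 cases and fell in 7, 7 and 3, amino acid carriers rose in 7, 7 and 5 and fell in 8, 8 and 6, sugar carriers rose in 0 and fell in 3 each time, and metal carriers rose in 1 each time and fell in 3, 3 and 2. Acid-base and vitamin carriers rose in 1 each time, vitamin carriers fell in 1 with the floor, and nucleotide sugar carriers fell in 0. With the macrophage term amino acid carriers fell in 10, nucleotide sugar carriers rose in 2 and sugar carriers in 0. Risers among sugar carriers were 1 with upper-quartile normalization and without WT libraries 1 and 5, 0 with the replicate block, at an adjusted p under 0.01 and without deficient libraries 1 and 2, and 0 to 2 leaving out each library.

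Of 123 named genes called, 83 kept their call and sign under every setting that gave a value 39 lost the call in at least 1, and Slc36a1 only reversed, in FPKM (0.68 with + 1 and with the floor, 0.78 with + 0.1), Slc35a3 turned to -0.064 with + 1 and with the floor and -0.068 with + 0.1, and Slc4a1, not called in the main analysis, was 1.66 with the macrophage term. The cause was not tested. The ratio of Slc29a1 over Slc29a3 was not called in FPKM (-0.28). Leaving out each library gave 0.13 to 0.22 for Slc30a5 over Slc30a7 and 0.21 to 0.41 for Slc20a1 over Slc20a2.

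Replicate numbers did not pair the libraries: correlations of same-numbered deviations were -0.096 to 0.11, and only replicate 5 correlated best with its own number. With the replicate block 48 members rose and 65 fell. Members near 1 CPM rest on few counts, down to 6 in a library.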
